A study of Drosophila melanogaster with 2 samples.

Results

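The mitochondrial ribosomal protein genes are nuclear genes for the protein subunits of the ribosome inside mitochondria. Members were the protein-coding genes of Ensembl release 115 whose symbol begins with mRpL or mRpS and a number, which gave 73 of 13986 protein-coding genes. By symbol, 47 of the 73 belong to the large subunit and 26 to the small subunit. The data are peak lists from chromatin immunoprecipitation with sequencing (ChIP-seq) of the zinc finger transcription factor charlatan, encoded by chn. Whole Drosophila melanogaster embryos of both sexes, 0 to 24 h old, came from a transgenic line that stably makes charlatan with GFP fused at its C-terminal end, and an antibody against GFP was used. There was 1 group of 2 biological replicates and no second condition, so the comparisons are between these genes and all protein-coding genes, and between the replicates. Chromatin came from whole embryos, so a peak cannot be placed in a tissue, and the labels do not say which promoter or copy drives the fusion protein.

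Charlatan is best known in the fly for its part in the development of sensory organs of the peripheral nervous system. The mitochondrial ribosome translates the few proteins encoded by mitochondrial DNA, which are subunits of the respiratory chain and the ATP synthase. Its RNAs are made in the mitochondrion, while its proteins are encoded in the nucleus, made in the cytoplasm and imported. The small subunit reads the messenger RNA, and the large subunit forms the peptide bond and holds the exit tunnel. In compact insect genomes, many housekeeping genes lie head to head with a neighbour on the other strand and share the stretch between the transcription start sites (TSSs). Such a neighbour is called a divergent partner here when its TSS lies 0 to 1000 bp upstream of a TSS of the gene, on the opposite strand.

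The binding sites lay mostly in these shared stretches, so several are printed whole from the Release 6 genome. Each runs from one TSS to the other, 5′ to 3′ on the strand of the mitochondrial ribosomal protein gene, whose TSS is its last base. The 11 capital bases are centred on the strongest peak summit. The regions are chr3R:15229408-15229665 on the plus strand for mRpS10 and Art3, chr2L:4850419-4850641 on the minus strand for mRpS2 and Mon1, chr2L:4945361-4945579 on the minus strand for mRpL24 and betaggt-I and chr3R:9515908-9516007 on the minus strand for mRpL47 and CG8176. In all 4 the capitals stand nearer to the first base, the TSS of the partner, than to the last. Only short stretches are printed whole, and in 10 of all 32 pairs with a peak the summit was closer to the ribosomal gene.
mRpS10: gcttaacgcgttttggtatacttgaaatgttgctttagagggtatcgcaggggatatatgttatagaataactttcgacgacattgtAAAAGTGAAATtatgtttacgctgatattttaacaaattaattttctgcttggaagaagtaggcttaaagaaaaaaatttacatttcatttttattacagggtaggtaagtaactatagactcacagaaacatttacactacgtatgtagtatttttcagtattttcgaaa
mRpS2: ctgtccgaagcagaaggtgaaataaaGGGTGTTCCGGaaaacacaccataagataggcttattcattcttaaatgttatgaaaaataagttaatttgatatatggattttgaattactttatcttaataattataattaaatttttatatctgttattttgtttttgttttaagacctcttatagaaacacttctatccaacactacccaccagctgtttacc
mRpL24: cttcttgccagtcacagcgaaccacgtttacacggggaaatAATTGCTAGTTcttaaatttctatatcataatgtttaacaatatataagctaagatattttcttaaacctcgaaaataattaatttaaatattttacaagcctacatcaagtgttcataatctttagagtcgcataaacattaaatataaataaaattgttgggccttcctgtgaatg
mRpL47: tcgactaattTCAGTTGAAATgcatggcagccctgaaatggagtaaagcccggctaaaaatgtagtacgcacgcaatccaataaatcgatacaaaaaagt

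For mRpS23, which had the strongest peak of all 73 genes, the distance between the TSSs of the pair is 492 bp, and the summit with 50 bp to each side is shown, chr2L:13835394-13835494 on the minus strand, with the same 11 bases in capitals. The peak lies between mRpS23 and CenG1A.
mRpS23: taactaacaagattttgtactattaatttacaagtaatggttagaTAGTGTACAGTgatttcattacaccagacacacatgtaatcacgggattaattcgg

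Charlatan peaks were found at 33 of the 73 genes (45.2%), against 3370 of 13986 protein-coding genes (24.1%). The count takes summits of the set that passed the threshold on the irreproducible discovery rate (IDR), a measure of how well replicates repeat a peak's rank, and that lie within 1000 bp of a TSS of the gene. The thresholded summits are the strongest by deposited signal of a relaxed list of 30000 made from both replicates together, and those near a gene have ranks of 1 to 4533 in it. By its label the relaxed list holds peaks and background, so a summit in it need not be a peak. In the relaxed list, 64 of the 73 genes (87.7%) had a summit within 1000 bp, against 60.2% of all protein-coding genes. A further 31 genes therefore had a relaxed summit only, and 9 had none. These 9 were mRpL14, mRpL15, mRpL30, mRpL40, mRpL45, mRpS9, mRpS28, mRpS33 and mRpS35. Depth is unknown because no read counts come with the lists, and a gene with no summit cannot be told from one with a weak site. Cytoplasmic ribosomal protein genes, which encode the separate ribosome of the cytoplasm, had a thresholded summit in 63 of 92 (68.5%). No test was run over these gene lists, and the shares are descriptions.

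**Figure D1:**
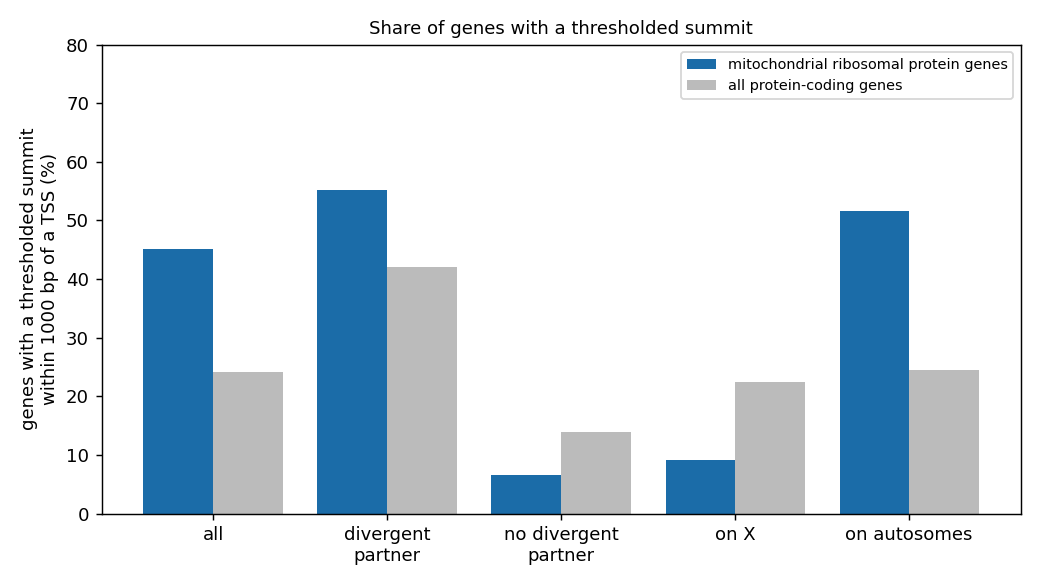
Share of genes (percent, y axis from 0) with a thresholded summit within 1000 bp of a TSS, for mitochondrial ribosomal protein genes (blue) and all protein-coding genes (grey). From left to right the pairs are all genes (45.2% and 24.1%), genes with a divergent partner (55.2% and 42%), genes without one (6.67% and 14%), genes on X (9.09% and 22.4%) and genes on the autosomes (51.6% and 24.5%).

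The 4 strongest peaks stood well above the rest. mRpS23, which encodes a subunit of the small ribosomal subunit with no bacterial counterpart, had a deposited signal of 1131.93, rank 12 in the thresholded set. The peak spans 2L, 13835272 to 13835641, with its summit 372 bp upstream of the TSS and 120 bp from that of CenG1A, an Arf GTPase-activating protein. Its matching summits ranked 12 in replicate 1 and 12 in replicate 2, with signals of 661.87 and 466.83. mRpS10, the counterpart of bacterial S10 in the small subunit, had a signal of 967.72 and rank 15. This peak spans 3R, 15229342 to 15229718, with the summit 165 bp upstream of mRpS10 and 92 bp from the TSS of Art3, an arginine methyltransferase gene. It ranked 17 in replicate 1 and 13 in replicate 2, so both strongest sites held their place in each replicate.

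mRpL41, a protein of the large subunit that bacteria lack, had a signal of 826.67 and rank 30. Its peak spans 2R, 15217582 to 15217934, with the summit 142 bp upstream and far from its partner CG8079, whose TSS is 620 bp away. It ranked 42 in replicate 1 and 20 in replicate 2. mRpL23, the counterpart of the bacterial protein L23 beside the exit tunnel, had a signal of 747.82 and rank 41. The peak spans 3L, 2373439 to 2373778, and its summit lies 63 bp downstream of the nearest TSS, in the 5′ untranslated region of mRpL23 itself. It ranked 41 in replicate 1 and 45 in replicate 2. The next gene, mRpS2, ranked 441, so no member lay between ranks 41 and 441.

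The other 8 of the 12 strongest peaks had signals from 133.24 to 263.69. mRpS2, the counterpart of bacterial S2, had a peak of signal 263.69 at 2L, 4850509 to 4850688, 191 bp upstream and 31 bp from the TSS of Mon1, a gene of endosome maturation, ranked 573 in replicate 1 and 341 in replicate 2. mRpL24 had a signal of 240.36 and rank 519 at 2L, 4945440 to 4945596, 172 bp upstream and 46 bp from betaggt-I, which encodes a subunit of a geranylgeranyl transferase, with replicate ranks of 520 and 566. mRpL34 had 238.76 and rank 527 at 2R, 16098543 to 16098942, 205 bp upstream and 179 bp from Dg, the dystroglycan gene, with replicate ranks of 704 and 455. At all of these the partner's TSS was nearer to the summit than that of the ribosomal gene.

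mRpL4, the counterpart of a bacterial protein that lines the exit tunnel, had a signal of 188.38 and rank 911 at 2L, 16329194 to 16329309. Its summit lay 98 bp upstream and 695 bp from the TSS of CG4440, and ranked 1205 in replicate 1 and 666 in replicate 2. mRpL47 had 171.09 and rank 1120 at 3R, 9515792 to 9516191, 84 bp upstream, with replicate ranks of 1144 and 1170. Its summit is 15 bp from TSSs of both CG8176 and Kdm3, a histone demethylase gene, so this peak lies beside 3 genes. mRpL20 had 169.46 and rank 1150 at 3L, 13017900 to 13018299, 233 bp upstream and 166 bp from Icmt, a carboxyl methyltransferase gene, with replicate ranks of 993 and 1510.

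mRpS16 had 137.35 and rank 1665 at 2R, 14173485 to 14173884, 89 bp upstream and 8 bp from the TSS of cg, the zinc finger gene combgap, with replicate ranks of 1434 and 2037. mRpL18 had 133.24 and rank 1737 at 2R, 12756150 to 12756549, 84 bp upstream and 64 bp from Taz, the gene of the cardiolipin enzyme tafazzin, with replicate ranks of 2214 and 1298. The last of these summits falls in the 5′ untranslated region of Taz and not between the TSSs.

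**Figure D2:**
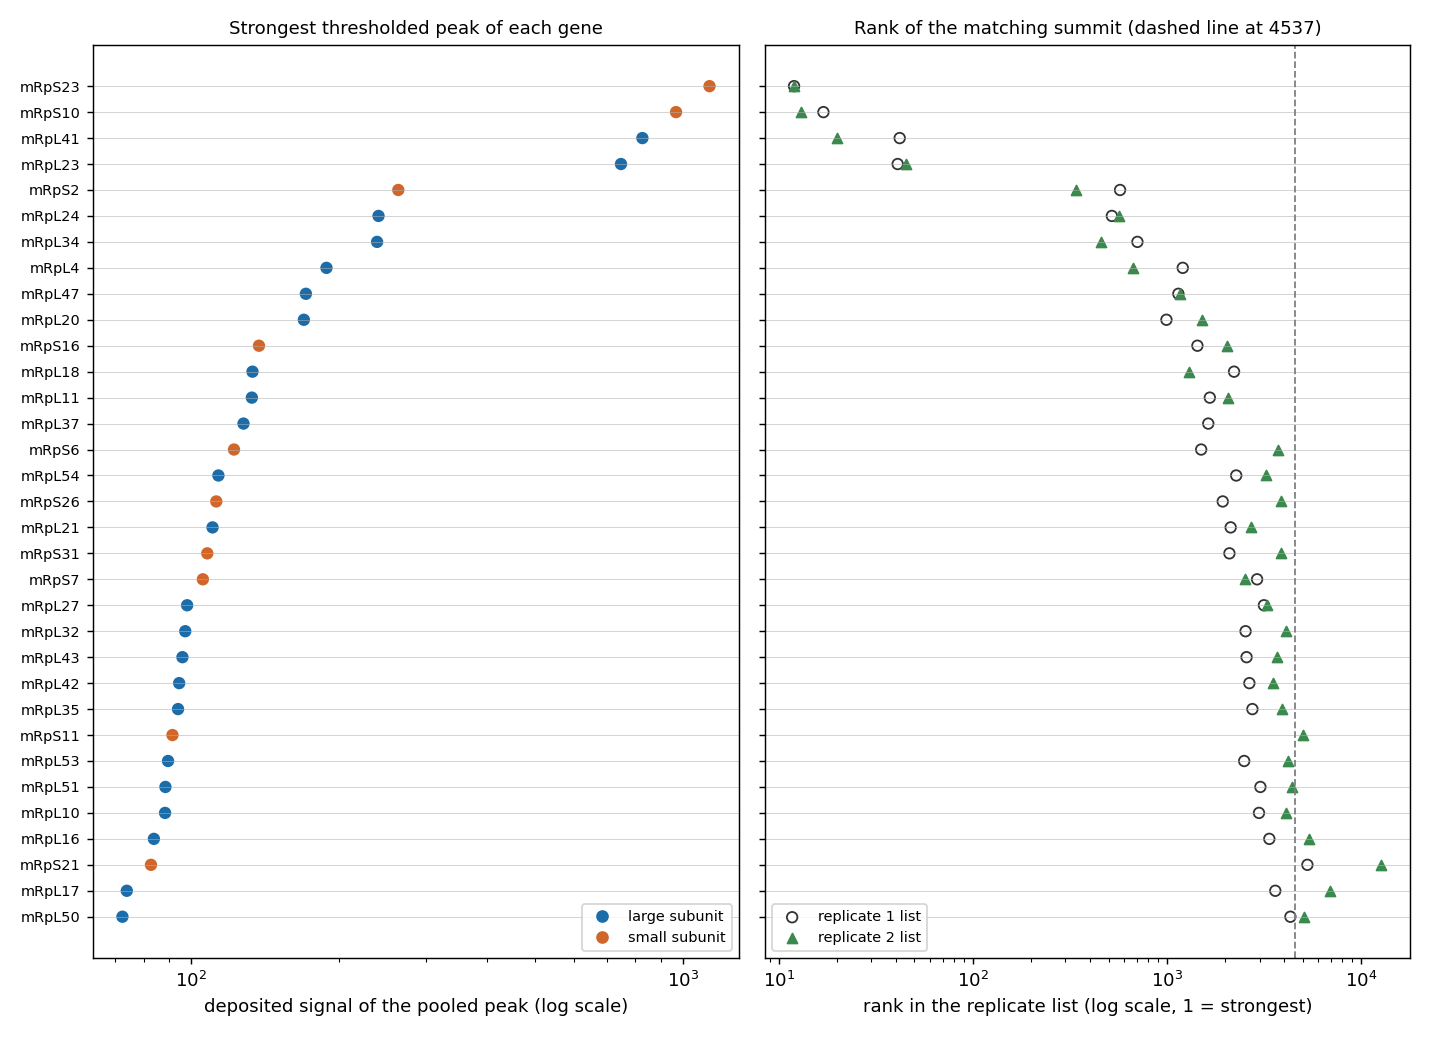
Left, deposited signal of the strongest thresholded pooled peak (log axis) of each of the 33 genes, from mRpS23 (1131.93) at the top to mRpL50 (72.48) at the bottom, blue for the large and orange for the small subunit. Right, rank of the matching summit in the replicate 1 list (open circles) and the replicate 2 list (green triangles) on a log axis, with a dashed line at the number of thresholded summits. From the middle of the order down, the triangles mostly lie to the right of the circles.

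The remaining 21 genes had weaker peaks that filled the lower ranks of the thresholded set. In the large subunit these were mRpL11 (signal 132.84, rank 1744), mRpL37 (127.74, 1873), mRpL54 (113.59, 2257), mRpL21 (110.51, 2360), mRpL27 (98.12, 2842), mRpL32 (97.26, 2880) and mRpL43 (95.99, 2931). Below them came mRpL42 (signal 94.53, rank 2998), mRpL35 (94.03, 3026), mRpL53 (89.73, 3282), mRpL51 (88.64, 3349), mRpL10 (88.49, 3356), mRpL16 (83.98, 3628), mRpL17 (73.98, 4341) and mRpL50 (72.48, 4455). mRpL11 and mRpL10 are counterparts of bacterial proteins at the base of the stalk where translation factors bind, and mRpL16 of one near the peptidyl transferase centre. In the small subunit, the signal was 122.19 at mRpS6 (rank 2004), 112.47 at mRpS26 (2294), 107.83 at mRpS31 (2454), 105.62 at mRpS7 (2544), 91.61 at mRpS11 (3158) and 82.84 at mRpS21 (3706). Over all 33 genes the median rank was 2294 and the median signal 112, against a median rank of 1888 and a median signal of 127 over all protein-coding genes with a thresholded summit. A rank of 1000 or better was reached by 8 of the 33 (24.2%), against 29.7% of all such genes. The share of genes with a peak was thus above that of all genes, while the peaks themselves did not rank higher.

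Just below the threshold, at signals under 71.4, were mRpL2 (71.18, rank 4564), mRpL1 (69.37, rank 4732) and mRpS17 (61.77, rank 5568). mRpL2 and mRpL1 are counterparts of bacterial proteins of the large subunit, at its core and in the arm beside the tRNA exit site. Just above it was mRpL50 with 72.48. The 31 genes with a relaxed summit only had a median rank of 10480 and a median signal of 39.5. In this group 19 of 31 strongest summits (61.3%) lay upstream of the TSS, over a range from -645 to 961 bp. The thresholded summits ranged from -372 to 63 bp. The same was not taken over all genes with a relaxed summit only, so these values are not shown to be particular to the members.

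The thresholded summits sat just upstream of the ribosomal genes. Measured along each gene's own strand, 30 of 33 strongest summits (90.9%) were upstream, against 83.5% over all genes with a thresholded summit. The median signed distance was -146 bp (quartiles -216 and -79), against -119 bp (quartiles -254 and -38) over all such genes. All 33 lay within 400 bp of the TSS, as did 2691 of 3370 genes in all. The downstream ones were mRpL23 at 63 bp, mRpL42 at 31 bp and mRpS11 at 10 bp. The farthest upstream was mRpS23 at -372 bp, ahead of mRpL17 at -350 bp. On the plus strand 16 of 18 summits were upstream with a median of -156 bp, and on the minus strand 14 of 15 with a median of -103 bp, so the side was the same on both strands. By annotation, 25 of the 33 summits were intergenic, 7 fell in a 5′ untranslated region and 1 in an intron of AGO1. The split by annotation was not made over all thresholded summits, so it is not shown to be particular to the members. Of the 7, mRpL23, mRpL42 and mRpS11 held the summit in their own 5′ untranslated region, and at mRpL11, mRpL18, mRpL27 and mRpL51 it was in that of the partner.

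**Figure D3:**
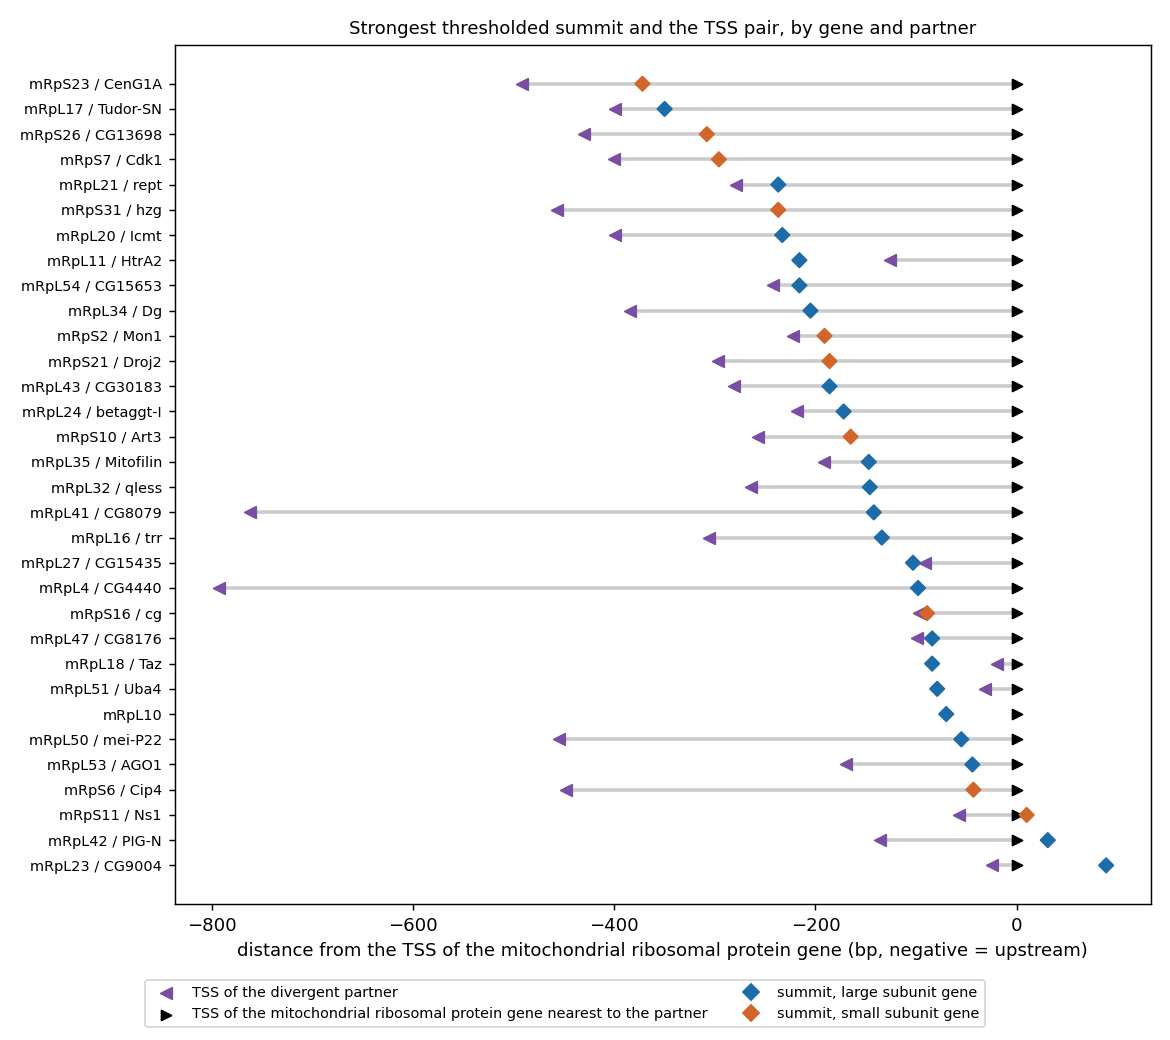
Position of the strongest thresholded summit (diamonds, blue for the large and orange for the small subunit) relative to the TSS of each mitochondrial ribosomal protein gene at 0 (black triangles) and the TSS of its divergent partner (purple triangles), in bp with negative values upstream. Where a gene has several TSSs the one nearest to the partner is at 0, so mRpL23 is drawn at 89 bp and not at 63 bp, and most diamonds lie between the triangles. mRpL37 is not drawn.

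Nearly every gene with a thresholded peak was one of a head-to-head pair (97%, against 63% of all genes with a thresholded summit). A divergent partner was annotated for 58 of the 73 genes (79.5%), against 36.2% of all protein-coding genes. Of those 58, 32 had a thresholded summit (55.2%), against 42% of all genes with a divergent partner. Of the 15 genes without a partner, 1 had a thresholded summit (6.67%), against 14% of all genes without one. That gene was mRpL10, whose summit had no other gene within 1000 bp. Genes with a partner have a second TSS within reach of the same summit. Of the 33 summits, 29 had 1 other gene within 1000 bp and 3 had 2, counts that were not taken over all thresholded summits. The stretch between the TSSs had a median length of 271.5 bp (20 to 793) in the 32 pairs, 328 bp in the 23 pairs with a relaxed summit only, and 298 bp over all genes with a partner. At 3 pairs no summit was found in the relaxed list, those of mRpL15 with CtIP, mRpS28 with CG5323 and mRpL30 with HLH4C. There the stretches were 41 to 457 bp long.

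Within the pairs the summit lay closer to the partner more often than to the ribosomal gene. It was between the TSSs in 25 of the 32 pairs (78.1%), against 66.2% of all thresholded genes with a partner. In 22 of 32 (68.8%) it was closer to the TSS of the partner, against 963 of 2122 such genes in all (45.4%). In 10 pairs it was within 50 bp of the partner's TSS, from 8 bp at cg beside mRpS16 to 49 bp at Tudor-SN beside mRpL17. This count was not taken over all genes with a partner, so it is not shown to be particular to the members. Over all annotated genes, the nearest TSS belonged to the ribosomal gene in 11 of 33 (33.3%), tied with CG33155 at mRpL53, against 68.7% of all thresholded genes and 77.8% of the cytoplasmic ribosomal protein genes. In those cytoplasmic genes the summit lay at a median of -34 bp, nearer to the gene's own start. These shares mix genes with and without a divergent partner. Among thresholded genes with a partner, the nearest TSS was the member's own in 10 of 32 (31.2%), against 52.6% of all such genes. In such cytoplasmic ribosomal protein genes the share was 68.2%. A peak between a pair of TSSs cannot be assigned to either gene from these lists.

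The partners cover many functions. HtrA2 beside mRpL11 encodes a mitochondrial protease, Mitofilin beside mRpL35 a protein of the inner membrane cristae, qless beside mRpL32 an enzyme of coenzyme Q synthesis and Taz beside mRpL18 a cardiolipin enzyme. Others act elsewhere in the cell, such as Cdk1 beside mRpS7, a kinase of the cell cycle, rept beside mRpL21, a chromatin remodelling ATPase, trr beside mRpL16, a histone methyltransferase, and AGO1 beside mRpL53, which acts in microRNA silencing. These partners were picked for what is known of them after their peaks were seen.

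mRpL37 was the only member with more than 1 thresholded summit. The stronger, at -71 bp (signal 127.74, rank 1873), ranked 1631 in replicate 1 and had no summit within 100 bp in replicate 2. The weaker, at -276 bp (signal 72.87, rank 4424), ranked 9178 in replicate 1 and 2196 in replicate 2. The stronger summit of replicate 1 thus lay nearer to mRpL37 than that of replicate 2.

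Most peaks were strong in both replicates. A summit within 100 bp was found in both replicate lists for 31 of the 33 strongest member summits. Over all thresholded summits the share matched in both lists was slightly higher than this. The match was then limited to the strongest summits of each replicate, as many as the thresholded set holds. It was found in both lists for 27 of 33 member summits (81.8%), against 72.4% of all thresholded summits. At mRpL16, mRpL17, mRpL37 and mRpL50 it was among them in replicate 1 only, with ranks in replicate 2 of 5382 at mRpL16, 6905 at mRpL17 and 5082 at mRpL50 and no match at mRpL37. At mRpS11 and mRpS21 it was among them in neither. mRpS11 had no summit within 100 bp in replicate 1 and rank 5011 in replicate 2, and mRpS21 had ranks of 5284 and 12669. Each of these genes also had a summit that ranked higher in one list, not far beyond the 100 bp match distance. At mRpS11 it lay at 119 bp in replicate 1 (rank 2688), with the pooled summit at 10 bp. At mRpS21 it lay at -56 bp in replicate 2 (rank 2470), with the pooled summit at -186 bp. The matching summits lay a median of 9 bp away in replicate 1 and 15.5 bp away in replicate 2, against 7 bp and 11 bp over all thresholded summits.

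The weaker peaks mostly ranked higher in replicate 1. Of the 31 matched in both, 23 (74.2%) had the better rank in replicate 1, against 51.9% of all thresholded summits. Of the 8 that ranked 1000 or better in the pooled list, 2 ranked better in replicate 1 and 5 in replicate 2. Of those ranked below 1000 it was 21 of 23 (91.3%) in replicate 1, against 51.6% of all thresholded summits of such rank. mRpS6 ranked 1499 in replicate 1 and 3744 in replicate 2, mRpS31 2096 in replicate 1 and 3845 in replicate 2, and mRpL53 2497 in replicate 1 and 4216 in replicate 2. Ranks in 2 lists of equal length were compared, and signal levels were not compared between lists. When as many of the strongest summits of each replicate were used alone, each gave 33 of the 73 genes, with 29 shared (87.9% of each). mRpL1, mRpL16, mRpL50 and mRpS11 were found with replicate 1 only, and mRpL13, mRpL33, mRpS18B and mRpS21 with replicate 2 only. So the number of genes was equal in the replicates, while 8 genes differed. The overlap was not taken over all protein-coding genes, so it is not shown to be particular to the members.

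By chromosome, few of the genes on X had a thresholded peak. Of the 11 on X, 1 had a thresholded summit (9.09%), mRpL16, against 22.4% of all protein-coding genes on X. On the autosomes it was 32 of 62 (51.6%), against 24.5% of all autosomal genes. A divergent partner was present for 9 of the 11 genes on X. A relaxed summit was present for 9 of 11, mRpL16 among them, against 62.7% of all genes on X. The 8 with a relaxed summit only had ranks from 5723 at mRpS25 to 24383 at mRpL38, where a summit need not be a peak. Of all genes on X with a divergent partner 34.7% had a thresholded summit, and of such autosomal genes 43.3%. Among the autosomal arms the counts were 8 of 12 on 2L, 8 of 12 on 2R, 8 of 17 on 3L and 8 of 21 on 3R. The split by chromosome was made after the values were seen, rests on 11 genes, and was not tested.

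Genes of the large subunit had a thresholded summit in 23 of 47 (48.9%) and genes of the small subunit in 10 of 26 (38.5%). mRpS30 and mRpS18A carry small subunit names, but their human counterparts sit in the large subunit. With both counted there the shares were 23 of 49 (46.9%) and 10 of 24 (41.7%). Median ranks were 2360 and 2149, and median distances -134 and -188.5 bp, in the large and the small subunit. The difference was not tested, and it narrowed when 2 genes were moved. Of the genes with a counterpart in bacteria, as for mRpS2 and mRpL4, 22 of 45 had a thresholded summit (48.9%), and of those without one, as for mRpS23 and mRpL41, 11 of 28 (39.3%).

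A sequence shared by many of the 73 genes was the E-box CAGCTG, a palindrome that basic helix-loop-helix proteins bind. In the promoter window from 150 bp upstream to 50 bp downstream of the canonical TSS, 39 of 73 (53.4%) held CAGCTG, against 14.2% of 13967 promoters of all protein-coding genes and 8.7% of those of cytoplasmic ribosomal protein genes. It was present in 17 of 33 genes with a thresholded summit (51.5%), 15 of 31 with a relaxed summit only (48.4%) and 7 of 9 with none (77.8%). Over all genes the same shares were 18.6%, 15.5% and 10.3%. So the E-box was no more frequent at the mitochondrial ribosomal protein genes that had peaks than at those that lacked them. In the large subunit 26 genes (55.3%) had it, and in the small subunit 13 (50%). Examples from genes with and without a peak are printed with the E-box in capitals and 12 bases to each side, on the strand of the gene. mRpL23 (chr3L:2373715-2373744, minus strand), mRpS2 (chr2L:4850413-4850442, minus strand), mRpL24 (chr2L:4945324-4945353, minus strand) and mRpL47 (chr3R:9515873-9515902, minus strand) had thresholded summits. mRpS9 (chr3R:7902710-7902739, minus strand), mRpL40 (chr3R:11407929-11407958, plus strand), mRpL45 (chr3R:22618471-22618500, plus strand) and mRpS35 (chr3L:2780875-2780904, plus strand) had no summit in the relaxed list. In the replicate lists, mRpS9 had one in replicate 2 (rank 16642), and mRpL40 (rank 22512) and mRpS35 (rank 28662) had one in replicate 1.
mRpL23: gtggttgacaatCAGCTGtttaaaacaagt
mRpS2: aacactacccacCAGCTGtttaccaaaatc
mRpL24: ttcagttctcaaCAGCTGattgcaagccgc
mRpL47: ttgttattgcttCAGCTGttttgttcggtc
mRpS9: ggcgccaaaaatCAGCTGaaagcttgtgtg
mRpL40: cagcaacaaaaaCAGCTGttcgtacattac
mRpL45: aatcacgtttgcCAGCTGgtcgcgttagtg
mRpS35: agtttctgtaaaCAGCTGattgcttgctat

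Most E-boxes in the promoter windows lay near the start of transcription. The 73 promoters held 40 matches, of which 30 lay between -10 and 40 bp from the TSS, with a median over all 40 of 8.5 bp, each taken at the base just before the middle of the palindrome. At or downstream of the TSS were 24 of 40 (60%), against 30.7% of matches in all promoters. The share of matches from -10 to 40 bp was not taken over all promoters. In the 17 genes with a thresholded summit and an E-box in this window, the nearest of these E-boxes was a median of 160 bp from the strongest summit, and in 3 it was within 100 bp. At mRpL23 and mRpL42 the E-box lay upstream of the TSS, at -52 and -129 bp, and the summit downstream. Some of the genes had a further CAGCTG outside the promoter window and nearer to the summit, 51 bp from it at mRpS2 and 62 bp at mRpL24, so that 7 genes had one within 100 bp of the summit when both kinds are counted. The longer form CAGCTGTT, read on either strand and seen at mRpL23, mRpS2, mRpL24, mRpL47, mRpL40 and mRpS35 above, was in 27 of 73 promoters (37%) against 6.25% of all promoters. It was chosen after the sequences were seen. A match is a run of letters and not a shown binding site.

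**Figure D4:**
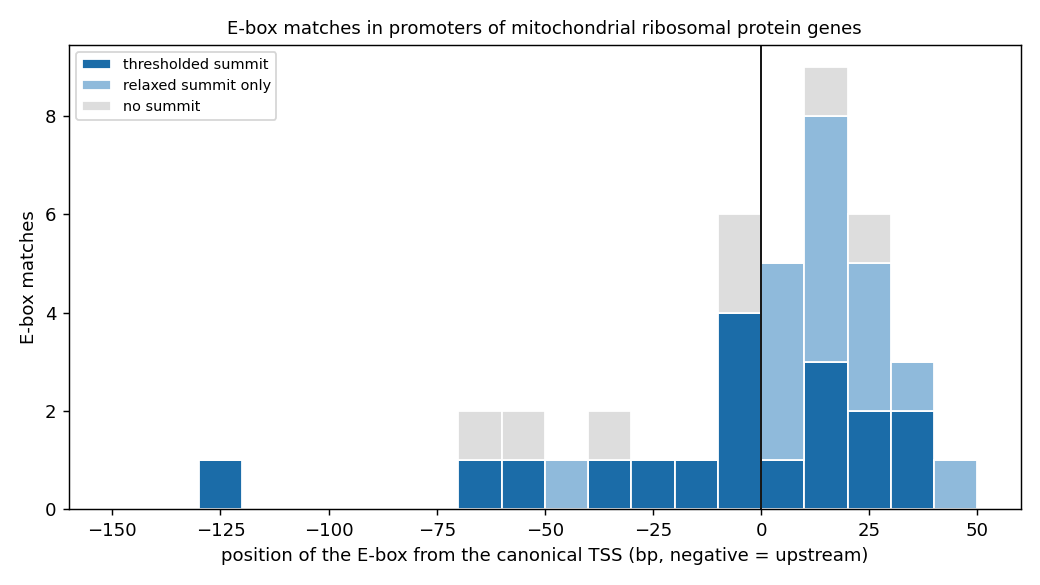
Number of CAGCTG matches (y axis) by distance of the match from the canonical TSS in bp (x axis, negative upstream, bins of 10 bp) in the promoters of the 73 genes, stacked by whether the gene had a thresholded summit (dark blue), a relaxed summit only (light blue) or no summit (grey). Of the 40 matches, 30 lie between -10 and 40 bp, and matches of all 3 colours are among them.

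Another promoter sequence, the DNA replication-related element TATCGATA, which the factor DREF binds, was in 15 of the 73 promoter windows (20.5%), against 7.8% of all promoters. Of the 33 windows of 100 bp to each side of the summits, TATCGATA was in 1, at mRpL10 (3.03%), against 4.78% of all thresholded windows, and its core ATCGAT in 5 (15.2% against 12.6%). CAGCTG was in 7 summit windows (21.2%, against 11.3% of all thresholded windows), at mRpL11, mRpL18, mRpL24, mRpL53, mRpL54, mRpS2 and mRpS6. CACGTG, the other common E-box, was in 4 (12.1% against 2.56%), at mRpL16, mRpL23, mRpL27 and mRpS11. The GAGA repeat GAGAG was in 5 (15.2% against 27%), and ACAGTGG in 2 (6.06% against 9.3%). CACNAG, the form of the N-box bound by repressors of the Hairy family, was in 8 (24.2% against 22.6%), TATAAA in 11 (33.3% against 29.7%), the initiator TCAGT in 13 (39.4% against 34.9%) and GGTCACAC in 1 (3.03% against 3.06%). The nuclear respiratory gene element, searched as TTACATAA, TTATGTAA, TTACGTAA and TTATATAA, was in none of the summit windows, against 3.44% of all thresholded windows. In the promoter windows this element was in 4 of 73 (5.48%), against 2.73% of all promoters. All motifs were read on both strands, and ATCGAT lies within TATCGATA. With 33 windows a share moves by about 3.03 percentage points for each gene, and no difference was tested. The median GC content was 35.3% in the 33 windows and 33.1% in those of the 4 strongest, against 37.8% over all thresholded windows.

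Other nuclear genes with mitochondrial roles, mostly in expression of the mitochondrial genome, had a lower share with peaks. The list was written by hand. Of 37 listed symbols 32 were in the annotation, and 7 of those 32 (21.9%) had a thresholded summit, against 24.1% of all protein-coding genes. Of these 7, 3 came from a class of chaperones, proteases and others, where 3 of 4 genes (75%) had one. The strongest was at PNPase, a mitochondrial polynucleotide phosphorylase, with signal 1265.3 and rank 8, and the next at Lon, a mitochondrial protease, with signal 709.99 and rank 47. Both ranked beside the 4 strongest ribosomal peaks, and at both the nearest TSS was the gene's own. Genes for mitochondrial DNA replication and transcription followed with mtSSB (rank 818), PolrMT (1164) and PolG2 (1900), 3 of 11 in that class. The chaperone gene Hsp60A had rank 2844 and clu, whose protein binds messenger RNAs of mitochondrial proteins, had rank 3626. None of the 9 translation factor genes in the annotation had a thresholded summit, and 6 of the 9 had a relaxed one, against 60.2% of all protein-coding genes. Among them mEFTu1, mEFTu2, mEFG1, mIF2, mIF3 and mRRF1 had no divergent partner. Of all genes without a partner 14% had a thresholded summit. The 2 small subunit proteins with other symbols, tko and bonsai, counterparts of bacterial S12 and S15, are outside the rule and had relaxed summits only, at ranks 6592 and 11094. In the promoters of the 32 genes, CAGCTG was present in 13 (40.6%) and TATCGATA in 10 (31.2%).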

How the data were processed

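Chromatin of whole embryos was sonicated to 200 to 800 bp, per the labels. Peaks were called by the authors on each replicate and on their pool, and the thresholded set was made from these lists, per the deposited inventory files. No source used here names the aligner or the peak caller, and the control was not analysed here. For each peak a deposited dm6 list has the interval, the summit, the signal and a q-value as its −log10. The deposited signal is not stated to be scaled to depth, and here it only orders the peaks of 1 list. The −log10 q-value was used only as a check, since it stood at its maximum of 3.89 in the lists for 31 of the 33 member peaks. The lists made on dm3 were not used here.

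Summits were assigned to every protein-coding gene of Ensembl release 115 with a TSS within 1000 bp, and sequence was read from the NCBI Release 6 genome, whose coordinates were identical for 73 of 73 members. A replicate summit matched when within 100 bp. Each gene with a thresholded summit was named with its signal and rank, and the 12 strongest were given in full. Members and lists were chosen with earlier results of these data known, and the list of proteins with a bacterial counterpart was written after the values were seen. The partner gene of mRpL37 is not reported here. The labels call the samples biological replicates and give no more on how they were collected. No test was run, since there was 1 group. Alternatives covered the distance, the TSS set, a stricter set, each replicate alone and the window size. The assignment, partner and motif steps were tested on simulated data. The software was pandas 2.3.3, numpy 2.4.6 and scipy 1.17.1 under Python 3.11.15.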

Additional observations from a re-analysis of the deposited data

How the results depend on the processing

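The number of genes with a thresholded summit was 33 at 500 bp, 33 with the canonical TSS alone, 33 with each replicate left out and 39 at 2000 bp, against 21.2%, 22.1%, 24% to 24.1% and 28.9% of all protein-coding genes. With the 1000 strongest peaks only, 8 genes were left (against 7.15% of all genes), 5 of the large and 3 of the small subunit, all 8 with a divergent partner, 3 with their own TSS nearest, and with a median rank of 241. Fewer peaks were counted there by construction. With the strongest 2000 of each replicate, 10 in place of 27 member peaks were found in both. The other 49 alternatives to the main results stayed within 1.5 times the count or within the 95% order-statistic interval of the median (-191 to -84 bp for the distance, 1665 to 2931 for the rank). With replicate 1 or replicate 2 left out, the large subunit had 23 and 24 genes, the small subunit 10 and 9, and the median distance was -151 and -137 bp. Of the motif counts in summit windows, CAGCTG was in 2 of 33 windows of 50 bp to each side and in 16 of 200 bp to each side. The share over all thresholded windows was not taken at these widths, so these counts do not show enrichment. CAGCTG in promoters was found in 34 genes within 50 bp of the TSS (against 9.33% of all) and 42 from 400 bp upstream to 100 bp downstream (against 24.3%), windows chosen after seeing the data. Each wider summit window holds the narrower one, so a motif count can only stay or rise with width. Some of the other motif counts stayed within 1.5 times the main count. No paired analysis was possible because there is 1 group. The intervals cover the choice of genes and not the spread between embryos, and without read counts the lists set no lower limit of detection.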
